A study of Mus musculus with 4 samples.

Results

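The long intervals are the listed m6A-enriched stretches of RNA whose deposited length was 1000 bp or more. They numbered 2272 of the 14451 intervals in the KO and WT mRNA site lists: 504 of 3937 in the KO list and 1768 of 10514 in the WT list. The members were selected on their measured length, so the widths below describe how the members were chosen and support nothing. The data are methylated RNA immunoprecipitation sequencing (MeRIP-seq) of mouse pancreata at embryonic stage E15.5. The KO animals lacked Mettl3 in pancreatic progenitors that express Pdx1 (named Mettl3pKO), and the WT animals were unmodified at that gene as far as the labels say. Each genotype had 1 MeRIP library and 1 input library of total RNA, fragmented to about 200 nt. The deletion was limited to the Pdx1 lineage, while a dissected pancreas also holds mesenchyme, vessels, nerves and blood, which keep Mettl3. Whether animals were pooled is not stated. With 1 library of each kind per genotype there was no replicate error and no test between genotypes, and read depth is unknown because the lists give no counts.

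N6-methyladenosine (m6A) is a methyl mark placed on messenger RNA by a nuclear complex whose catalytic subunit is Mettl3. It is known to lie mostly in long internal exons, around stop codons and in 3′ UTRs, and reader proteins of the Ythdf family bind it and shorten the life of the RNA. MeRIP-seq recovers RNA fragments with an antibody to the mark, so an interval marks a stretch with more antibody-recovered reads than input, and a wide interval can cover several marked adenosines that cannot be separated. The lists give no transcript levels, and a gene missing from one may be unmarked, weakly expressed or below the caller's threshold, and these cannot be told apart.

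Genome sequence was at hand only around gene starts and for miRNA hairpins, so the sequences shown are those that lie inside long intervals there. They show the stretch in which the motif GGACT, the most usual form of the m6A consensus, was sought: the first 50 transcribed bases, on the gene's strand. Of long intervals that held a start site of their own gene, 2 of 24 (8.33%) in KO and 7 of 49 (14.3%) in WT had GGACT in that window. Among shorter intervals at start sites the shares were 11 of 297 (3.70%) in KO and 18 of 482 (3.73%) in WT. Of all 32851 windows of the RefSeq promoter table (GRCm38.p6), 5.76% held it on the gene's strand and 4.87% on the opposite strand, where 0 of the 24 KO and 2 of the 49 WT windows of long intervals held it. The shorter motif GGAC, also sought and part of GGACT, was in 20.8% of long and 18.9% of shorter windows in KO, 18.4% and 16.4% in WT, and 18.9% of all windows. The GGACT counts are small, the 95% Wilson interval of the WT share for long intervals running from 7.10% to 26.7%, and a match is not a methylated site. The 3 lines below give 30 bases each, 5′ to 3′, with GGACT in capitals. The first lies in an interval listed identically in both genotypes, the second in a KO interval and the third in a WT interval.
Hmga1b: cctctaattgGGACTccgagtcggggctat
Fgf10: ggctttccaagGGACTtggaggtggagaga
Frem2: gacgtagGGACTctcctgactgctacacgc

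The Hmga1b bases are chr11:120762794-120762823 on the plus strand, the first of an interval of 1599 bp with a deposited fold enrichment of 5.81 in KO and 9.73 in WT. Hmga1b is a close copy of the chromatin architecture gene Hmga1, and reads of such copies may be shared. The Fgf10 bases are chr13:118714699-118714728 on the plus strand, within a KO interval of 1013 bp (fold enrichment 4.42) that no WT interval overlapped. Fgf10 is the mesenchymal growth factor that sustains pancreatic progenitors. The Frem2 bases are chr3:53657326-53657355 on the minus strand, within a WT interval of 5411 bp (fold enrichment 6.91) that no KO interval overlapped. Frem2 is a basement membrane protein of embryonic epithelia.

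Few miRNA hairpins lay wholly inside long intervals: 1 in KO and 5 in WT, of 1005 hairpins in the RefSeq table. On the strand of the host gene these were Mir7658 in a KO interval of Klhl17 (1036 bp, fold enrichment 4.51) and Mir5113 in a WT interval of Tnrc6b (3889 bp, fold enrichment 5.91). Tnrc6b is a scaffold of miRNA-guided silencing. The mature sequences are given with the seed, bases 2 to 8, in capitals, and no seed is shared among them.
miR-7658-3p: aCCACCUUccucacccacgcu
miR-7658-5p: uGUGGGCGuggcggugcugg
miR-5113: aCAGAGGAggagagagauccugu

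Long intervals were a minority of each list and the larger part of its listed sequence. They were 12.8% of the KO list (Wilson 95% interval 11.8% to 13.9%) and 16.8% of the WT list (16.1% to 17.5%); all intervals given with shares are of this kind, cover counting error over intervals only and take no account of library differences. In bases they held 1027496 of 1906363 bp (53.9%) in KO and 3697055 of 5969344 bp (61.9%) in WT. The median long interval measured 1694 bp in KO (quartiles 1253 and 2464) and 1760 bp in WT (quartiles 1316 and 2508). The widest reached 7903 bp in KO, in Ppm1l, and 8968 bp in WT, in Trim56. Intervals of at least 2000 bp numbered 187 in KO and 715 in WT, and those of at least 3000 bp 71 in KO and 279 in WT. The WT list held 3.51 times as many long intervals as the KO list, against 2.55 times as many shorter ones.

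**Figure D1:**
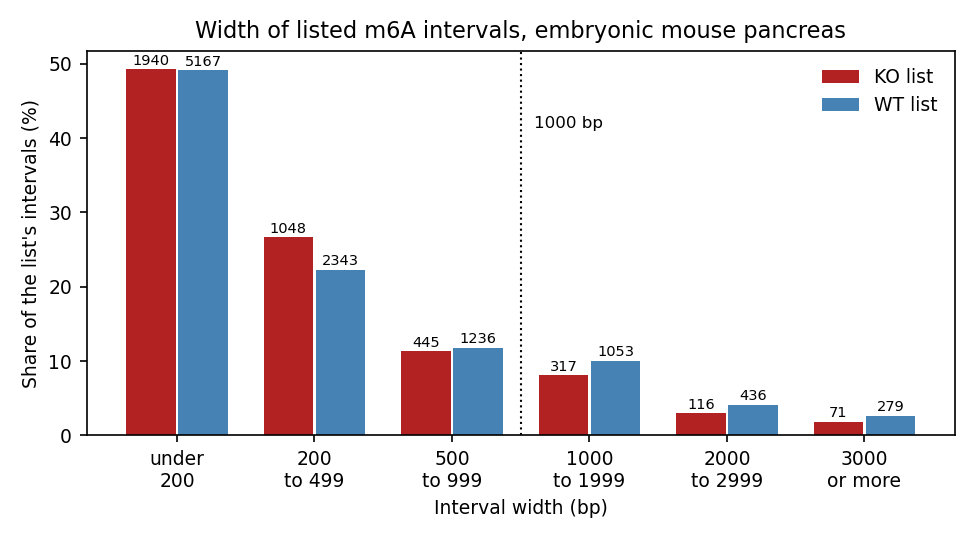
Share of each list's intervals (y axis, %) in 6 width classes (x axis, bp), KO bars left of WT bars, with the number of intervals above each bar and a dotted line at 1000 bp. Intervals under 200 bp made up 49.3% of the KO list and 49.1% of the WT list, and each class from 1000 bp upward took a smaller share of the KO list than of the WT list.

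The deposited false discovery rate of the long intervals differed between the lists. The rate, read here as percent because its values reach 100 and no unit is given, was high in KO. That of long KO intervals ran from 46.0% to 100%, with a median of 48.4%, and 0 of 504 were at or below 20%. That of long WT intervals ran from 9.75% to 100%, with a median of 10.9%, and 1419 of 1768 (80.3%) were at or below 20%. Every count of long KO intervals below therefore rests on calls with a deposited rate of at least 46.0%. Over shorter intervals the median was 48.5% in KO and 10.6% in WT. A rate of at most 50% was held by 68.3% of long and 70.4% of shorter intervals in KO, and by 95.3% of long and 97.5% of shorter ones in WT. In the widest class, 3000 bp or more, 64.8% in KO and 87.8% in WT had such a rate. The deposited score, -10 × log10 of the peak's p-value, was higher in that class as well. Its median there was 74.6 in KO and 122 in WT, against 68.7 and 82.8 over shorter intervals. A high rate thus did not mark a weak p-value in that class. A rate of 100% was given to 3.17% of long and 1.72% of shorter KO intervals. At the threshold itself, in KO, Sh3bp5l and Bahd1 had 1000 bp (fold enrichments 4.56 and 8.12), and just outside Dhx9 and Fgf18 had 996 bp (5.94 and 10.4). In WT, Hspb8 and Cul4b had 1000 bp (6.03 and 9.71), and just outside Fam120b and Stxbp2 had 999 bp (9.07 and 9.29). The median fold enrichment was 5.78 over the 56 KO intervals within 100 bp above the threshold and 6.73 over the 43 within 100 bp below it. In WT it was 7.37 over 167 intervals and 8.31 over 165.

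Long intervals sat at the 3′ end of genes far more often than shorter ones. Position along the gene could be read for 388 long KO and 1389 long WT intervals whose gene had a strand in the RefSeq table. Position was not part of the length rule but is not independent of width. The midpoint lay in the last 10% of the gene for 213 long KO intervals (54.9%, 49.9% to 59.8%), against 14.4% of 2655 shorter KO intervals. In WT it did so for 787 long intervals (56.7%, 54.0% to 59.2%), against 15.4% of 6982 shorter ones. The interval's 3′ edge came within 100 bp of the annotated gene end in 36.9% of long KO intervals (32.2% to 41.8%) and 5.24% of shorter ones (4.45% to 6.15%). The same shares in WT were 36.4% (33.9% to 39.0%) for long and 6.12% for shorter intervals. The KO and WT values for long intervals were thus alike in size, and each was well clear of the shorter intervals of its own list. A wide interval covers more sequence and so meets a gene end more readily, and intervals of 500 to 999 bp were already between, with 42.3% in KO and 42.2% in WT in the last 10%. Exon lengths were not at hand, so the part of exon size in these shares was not tested.

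**Figure D2:**
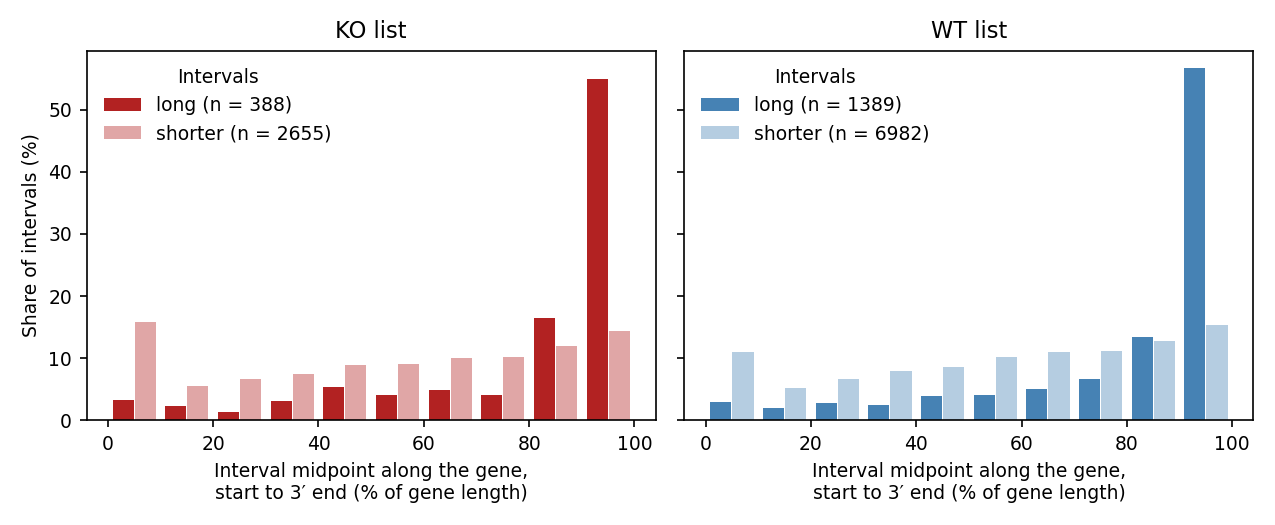
Position of interval midpoints along the gene from start site to 3′ end (x axis, % of annotated gene length, in bins of 10%) against the share of intervals (y axis, %), KO list left and WT list right, long intervals in dark and shorter ones in pale bars. Of the long intervals 54.9% (KO) and 56.7% (WT) fell in the last 10%, against 14.4% (KO) and 15.4% (WT) of the shorter ones.

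The other large group of long intervals lay inside genes. Over 1000 bp from both gene ends were 151 long KO intervals (38.9%, 34.2% to 43.9%) and 582 long WT intervals (41.9%, 39.3% to 44.5%). The same held for 79.1% of shorter KO and 82.8% of shorter WT intervals. Long intervals that began at the annotated start site were few: 16 (4.12%) in KO and 40 (2.88%) in WT. Genes known for very large internal exons were among the inner ones. Brca1, the homologous recombination tumour suppressor, had a KO interval of 3315 bp that ended 34564 bp before the gene end. Mki67, which coats mitotic chromosomes, had a WT interval of 6836 bp ending 4448 bp before it. Aspm, a spindle pole protein, had a WT interval of 3795 bp ending 12948 bp before it.

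Long KO intervals met a WT interval more often than shorter KO intervals did, whereas long and shorter WT intervals met KO intervals about equally often. An overlap of at least 1 bp was found for 202 of 504 long KO intervals (40.1%, 35.9% to 44.4%) and 1083 of 3433 shorter ones (31.5%, 30.01% to 33.1%), beside 32.6% over the whole KO list. In the other direction, 214 of 1768 long WT intervals (12.1%, 10.7% to 13.7%) and 1073 of 8746 shorter ones (12.3%, 11.6% to 13.0%) were met, beside 12.2% over the whole WT list. The KO share grew with width, from 35.0% at 1000 to 1999 bp through 43.1% at 2000 to 2999 bp to 57.7% (46.2% to 68.5%) at 3000 bp or more. Among WT intervals the share was 16.1% (12.3% to 20.9%) at 3000 bp or more and 11.6% and 10.8% in the other long classes, beside 13.5% at 200 to 499 bp. Measured in bases, 40.6% of long KO sequence and 31.0% of shorter KO sequence lay under a WT interval.

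That excess of the long KO intervals depended on how a match was defined and on which intervals were compared. Wide intervals overlap others more readily by width alone, and when an identical start and end was required the order turned. Identical partners existed for 84 long KO intervals (16.7%, 13.7% to 20.2%) and 935 shorter ones (27.2%, 25.8% to 28.7%), beside 25.9% of the list. For long WT intervals the same 84 pairs made 4.75% (3.85% to 5.84%), against 10.7% of shorter ones (10.1% to 11.4%), beside 9.69% of the list. The difference between long and shorter KO intervals in overlap was 8.53 percentage points (4.06 to 13.1). It was -2.85 points (-5.49 to 0.308) with as many WT as KO intervals, taken by highest deposited fold enrichment. That cut favoured shorter WT intervals, whose median fold enrichment was higher (8.04 against 7.22). Long ones made up 11.7% of the shortened WT list against 16.8% of the whole, so this value does not show the effect of list length alone. Among intervals with a fold enrichment of at least 5 the difference was 4.26 points (-0.793 to 9.65).

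**Figure D3:**
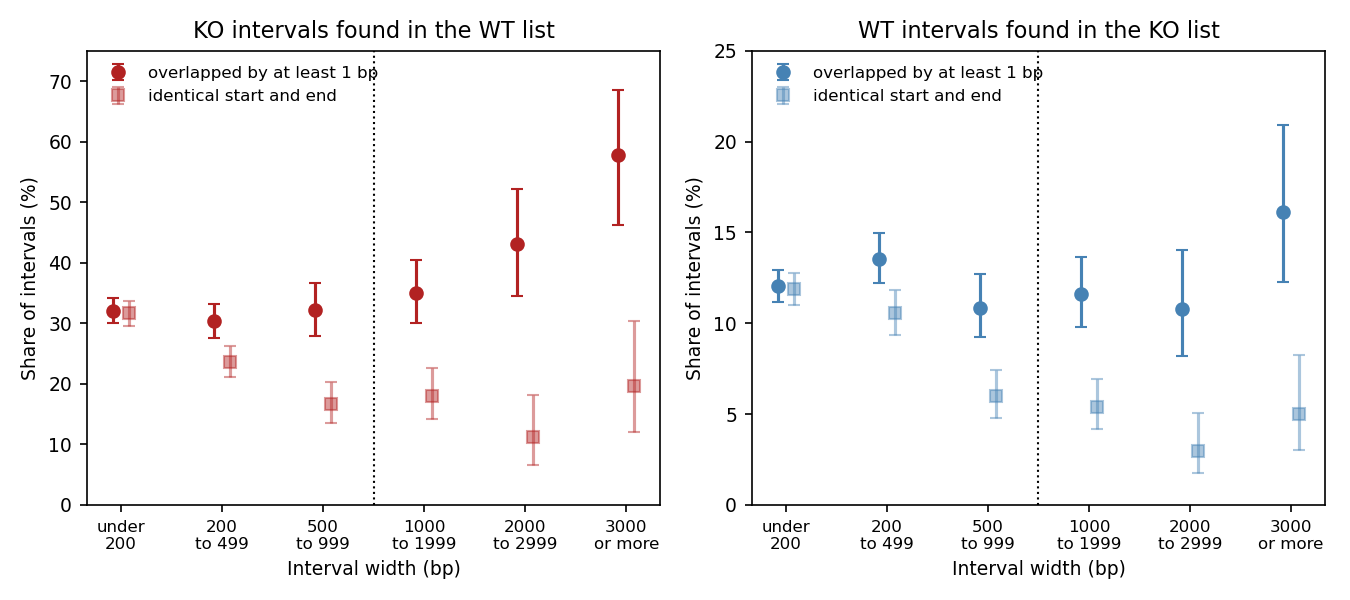
Share of intervals found in the other genotype's list (y axis, %) by width class (x axis, bp), KO intervals left and WT intervals right. Circles mark an overlap of at least 1 bp and pale squares an identical start and end, bars are Wilson 95% intervals, and the dotted line is at 1000 bp. In KO the circles climb to 57.7% in the widest class while the squares stay at or below 19.7% beyond 1000 bp.

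Where a long interval recurred, it usually recurred as a long one in the same gene. Of the 202 overlapped long KO intervals, 194 had a long WT partner, and of the 214 overlapped long WT intervals, 195 had a long KO partner. The lists shared 225 pairs with at least 1 long member, and in 0 of them did the gene names differ. Both members were long in 196 pairs, of which 84 (42.9%, 36.1% to 49.9%) were identical. Of 1064 pairs of shorter intervals, 935 (87.9%, 85.8% to 89.7%) were identical. Among the 112 pairs of long intervals that were not identical, the KO member was the shorter in 54 and the longer in 58.

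When long pairs differed, they mostly kept the 5′ edge. Along the gene's strand, 75 pairs with a long member shared the 5′ edge alone and 8 shared the 3′ edge alone; a further 25 shared an edge whose strand was unknown. Pairs of shorter intervals shared the 5′ edge alone in 58 and the 3′ edge alone in 36 cases. The median difference in length of the 75 pairs was 207 bp (quartiles 67 and 727.5). Both directions occurred: of the 61 such pairs with both members long, KO was longer in 31 and WT in 30.

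Egfr, the epidermal growth factor receptor, is an example of a longer KO interval. Both began at chr11:16911494, and the KO interval was 2424 bp and the WT interval 1806 bp long, with fold enrichments of 6.02 and 5.35. Pds5b, a regulator of sister chromatid cohesion, also had the longer interval in KO, at 2717 bp against 1880 bp in WT. Cbll1, which encodes the Hakai subunit of the m6A writer complex, had the shorter one in KO, at 1136 bp against 1715 bp in WT. Disp1, which releases Hedgehog ligands from the cell, had 650 bp in KO against 3607 bp in WT. These 4 were picked after their values were seen.

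The widest intervals present in both lists were on genes of the cell surface, signalling and transcription. Sema5a, a guidance cue of the semaphorin family, had an identical interval of 7046 bp at chr15:32689296-32696341 that ended at the annotated gene end, with fold enrichments of 6.03 in KO and 6.84 in WT. Flrt2, a leucine-rich repeat protein that binds guidance receptors and FGF receptors, had an identical one of 6709 bp at chr12:95778507-95785215, at 4.49 in KO and 6.74 in WT. Zbtb20, a zinc finger repressor, had 7582 bp in KO and 7639 bp in WT, overlapping but with different edges. Ppm1l, a protein phosphatase that restrains stress kinases, had 7903 bp in KO at chr3:69552828-69560730 and 6052 bp in WT.

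Several identical intervals lay inside genes. Bod1l, which protects stalled replication forks, had 5953 bp at chr5:41816208-41822160, ending 28670 bp before the gene end, with fold enrichments of 2.95 in KO and 5.40 in WT. Fat1, a giant atypical cadherin, had 4068 bp at 4.32 in KO and 5.88 in WT. Akap11, an anchor of protein kinase A, had 4441 bp at 3.75 in KO and 6.69 in WT. Cep295, needed to build centrioles, had 3370 bp at 3.94 in KO and 6.62 in WT. In each of these the deposited fold enrichment was the lower in KO, but the lists were called separately and their fold scales cannot be set against each other.

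Some of the widest intervals had no partner. In KO these included Slc7a2, a cationic amino acid transporter, with 5707 bp and a fold enrichment of 9.07, Phc3, a Polycomb protein, with 5580 bp, and Mrtfb, an actin-regulated coactivator, with 5370 bp. In WT they included Trim56, a ubiquitin ligase of antiviral signalling (8968 bp, 6.27), and Apc, the scaffold of β-catenin destruction (8775 bp, 6.83). The Apc interval carried a deposited false discovery rate of 100%, though its score was high, at 769.79. Atxn1l, a partner of the repressor Capicua, had 7132 bp at 8.95 in WT, and Asxl2, a Polycomb-associated chromatin protein, had 6798 bp at 7.50. The 2 WT intervals of largest width thus lay on genes with no long KO interval, as most did: 13.0% of WT genes with a long interval had one in KO. The Trim56 interval reached 5592 bp past the gene end annotated in the RefSeq table, so part of it may belong to another transcript.

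At the level of genes, 490 of 2776 listed KO genes (17.7%) and 1644 of 5080 listed WT genes (32.4%) carried a long interval. A long interval in both lists was found for 214 genes, which is 43.7% of the KO genes with a long interval (39.3% to 48.1%) and 13.0% of the WT ones (11.5% to 14.7%). In 189 of them the long intervals overlapped and in 84 they were identical. Of the rest, 85 KO genes had only shorter WT intervals and 191 had none in WT. In the other direction, 368 WT genes had only shorter KO intervals and 1062 had none in KO.

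Carrying a long interval went with a lower share of genes listed in the other genotype at all. Of KO genes with a long interval 61.0% (56.6% to 65.2%) had any WT interval, against 71.3% (69.4% to 73.1%) of KO genes with shorter intervals only, beside 69.5% of all KO genes. Of WT genes with a long interval 35.4% (33.1% to 37.7%) had any KO interval, against 39.2% (37.6% to 40.8%) of those with shorter ones only, beside 38% of all WT genes. Number of intervals moved with this. The long interval was the only one of its gene for 367 KO genes (74.9%) and 852 WT genes (51.8%).

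Among genes with a single interval the order was the same: 51.5% against 64.8% in KO, and 23.6% (20.9% to 26.6%) against 27.4% (25.5% to 29.5%) in WT, long before shorter. With 2 intervals it was 82.9% against 85.8% in KO, and 31.7% (27.2% to 36.6%) against 44.7% (41.1% to 48.5%) in WT. With 3 or more intervals it was 100% of 47 genes against 94.2% of 208 in KO, and 62.4% against 61.3% in WT. Most genes had 1 long interval, while 12 KO and 107 WT genes had 2, 1 KO and 7 WT genes had 3, and 1 WT gene had 4. Those with 3 in WT included Akap9, Ank2, Fat2, Fat4, Pclo and Tulp4, which encode a centrosomal anchor, a spectrin linker, 2 giant cadherins, a presynaptic scaffold and a tubby-like protein. In KO, Bod1l, Ncoa6 and Nsd3 were among those with 2; Ncoa6 is a nuclear receptor coactivator and Nsd3 a histone methyltransferase. Fat4 had WT intervals of 5195, 4350 and 3005 bp spread from near its start to its 3′ end, and no long KO interval.

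Zinc finger genes had long intervals more often than listed genes as a whole. Genes with a Zfp symbol, most of which are DNA-binding repressors whose finger array is encoded in a single exon, carried one in 32 of 49 listed KO genes (65.3%, 51.3% to 77.1%). In WT they did so in 100 of 123 (81.3%, 73.5% to 87.2%). Both shares lay above those of all listed genes, 17.7% in KO and 32.4% in WT. The part of exon size in this difference was not tested. The long intervals of Zfp genes had a median of 2204 bp in KO and 2309 bp in WT. In KO 17 of 35 (48.6%) and in WT 20 of 112 (17.9%) were overlapped in the other list, beside 40.1% and 12.1% of all long intervals. The KO interval, 33.0% to 64.4%, includes the share of all long ones. Only 2 pairs were identical. Of those with a position, 9 of 25 in KO and 12 of 85 in WT (14.1%) ended within 100 bp of the gene end, beside 36.9% and 36.4% of all long intervals.

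Long intervals in both lists were found on 15 Zfp genes. Zfp106 was identical at 3323 bp, and Zfp433 at 2120 bp with fold enrichments of 8.15 in KO and 16.05 in WT. Zfp462, a chromatin regulator of embryonic development, had a KO interval of 4606 bp that overlapped separate WT intervals of 2531 bp and 2997 bp. The first WT interval had the same left edge and the second reached past the right edge of the KO interval. Zfp973 was narrower in KO, at 2216 bp against 3778 bp in WT, and Zfp781 likewise, at 2770 bp against 3698 bp. Many of these genes lie in clusters of near-identical copies, where reads may be shared between copies, so single members are uncertain; Zfp781 itself was listed at more than one place. Protocadherin (Pcdh) genes had a long interval in 4 of 5 listed genes in KO and 5 of 6 in WT, and solute carriers in 13 of 41 in KO and 29 of 64 in WT. Ribosomal protein genes, cytosolic and mitochondrial, had one in 1 of 31 in KO and 7 of 68 in WT.

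**Figure D4:**
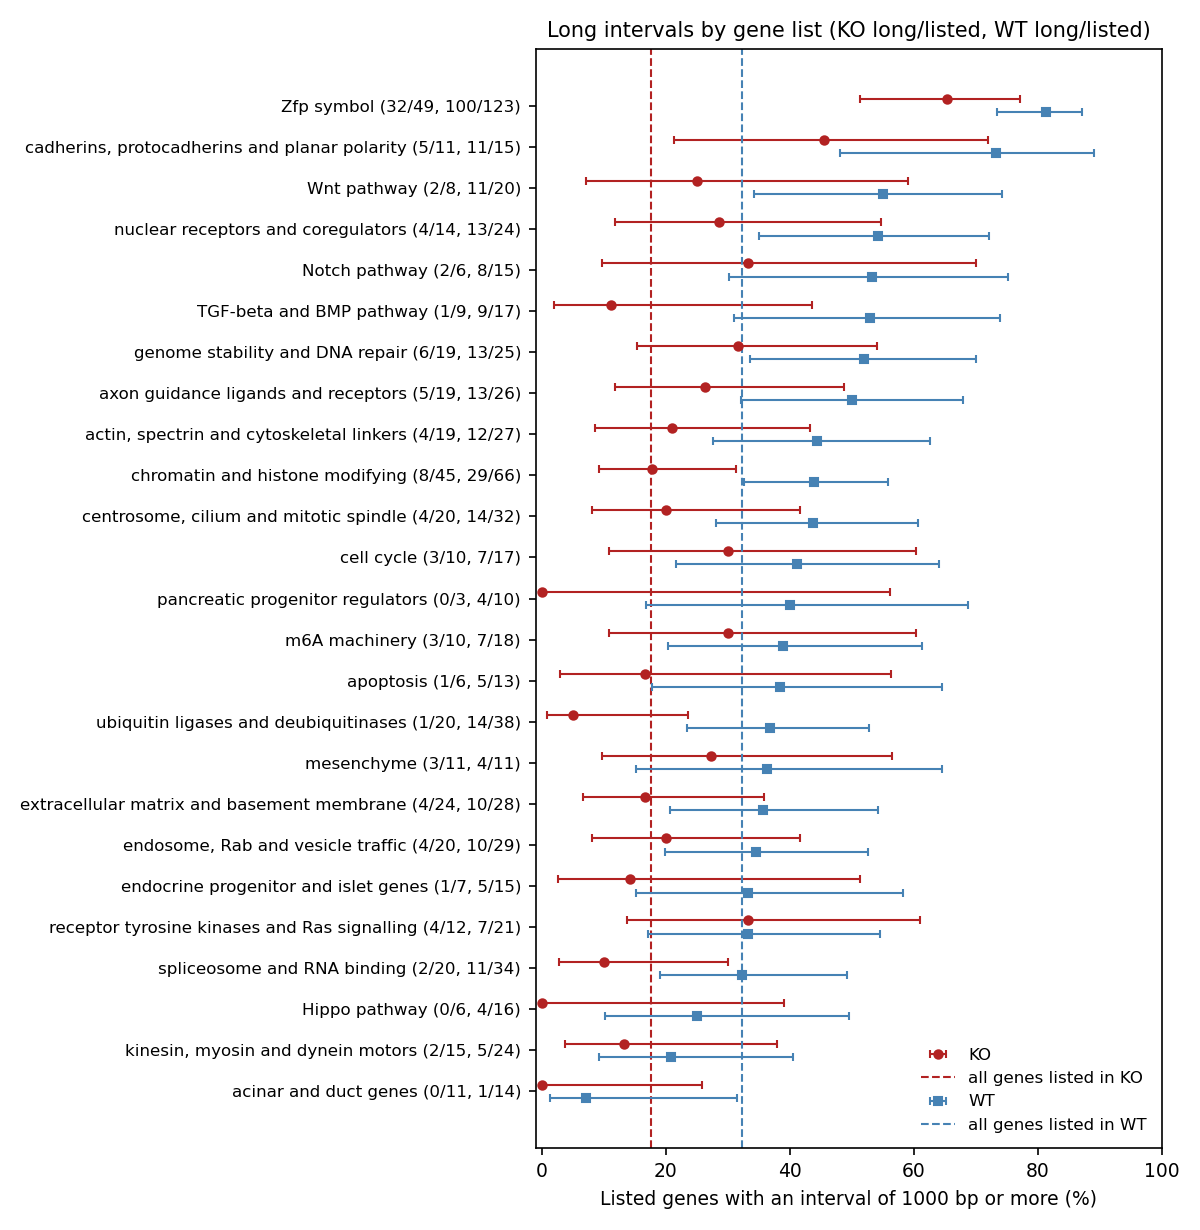
Share of listed genes with a long interval (x axis, %) for Zfp genes and for the gene lists with at least 10 members in the WT list, KO circles above WT squares, with Wilson 95% intervals and the counts beside each name. Dashed lines mark all listed genes, 17.7% in KO and 32.4% in WT. Zfp genes lie to the right of both lines, and acinar and duct genes have 0 of 11 in KO and 1 of 14 in WT.

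Chromatin genes carried a long interval about as often as all listed genes in KO. In WT their share was higher, with a lower bound close to that of all listed genes. Of the list of chromatin and histone modifiers, 8 of 45 listed genes in KO (17.8%) and 29 of 66 in WT (43.9%, 32.6% to 55.9%) carried one, and 7 did so in both. Over all listed genes the shares were 17.7% in KO and 32.4% in WT. Nsd1, a histone H3 methyltransferase, had the same 2560 bp in both lists, and Bptf, the large subunit of the nucleosome remodeller NURF, the same 2308 bp. Kmt2a, which methylates H3 at active promoters, had 4237 bp in KO and 2651 bp in WT at different places. Bcor, a Polycomb-linked corepressor, had 2847 bp in KO and no long interval in WT. Prdm2 (4582 bp), Ash1l (4558 bp) and Setd2 (4286 bp), all with a SET domain, had long intervals in WT alone. Here and below, a width in KO alone or in WT alone means that the other list held no long interval of the gene. Shorter ones may be listed there, as for Atm, with 3 WT intervals, and Plxna2, with 2 KO intervals.

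Genome stability and mitotic genes are given beside the same shares of all listed genes, 17.7% in KO and 32.4% in WT. Of genome stability genes 6 of 19 in KO (31.6%, 15.4% to 54.0%) and 13 of 25 in WT (52.0%, 33.5% to 70.0%) had a long interval, 4 of them in both: Bod1l, Pds5b, Fancm and Trp53bp1. Atm, the kinase that senses double strand breaks, had 2727 bp in KO alone. Of centrosome, cilium and spindle genes 4 of 20 in KO and 14 of 32 in WT had one. Knl1, a kinetochore scaffold, had 4797 bp in WT alone. Tacc1, a spindle protein, had 5269 bp in KO and 1108 bp elsewhere in the gene in WT. Of cell cycle genes 3 of 10 in KO and 7 of 17 in WT had one, with Cdc27, a subunit of the anaphase-promoting complex, at 3045 bp in KO and 2944 bp in WT. Nuclear receptors and coregulators had 4 of 14 in KO and 13 of 24 in WT; Nrip1, a corepressor, had 6454 bp in WT alone, and Tbl1x, a corepressor exchange factor, 3269 bp in both.

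Among cell surface genes, cadherins and planar polarity genes had the highest share of the lists in WT. They carried a long interval in 5 of 11 listed genes in KO and 11 of 15 in WT (73.3%, 48.0% to 89.1%). Pcdh18, a protocadherin whose extracellular part is encoded by 1 large exon, had an identical 2939 bp interval at 4.43 in KO and 7.07 in WT, and Pcdh1 had 2686 bp in KO and 2767 bp in WT. Celsr2, a core polarity cadherin, had 3078 bp in WT alone. Guidance ligands and receptors counted 5 of 19 in KO and 13 of 26 in WT. Slit2, a secreted guidance cue, had 2133 bp in KO alone, and Plxna2, a semaphorin receptor, 4750 bp in WT alone. Extracellular matrix genes counted 4 of 24 in KO and 10 of 28 in WT, near the shares of all listed genes. Vcan, a large proteoglycan, had overlapping intervals of 2049 bp in KO and 2012 bp in WT at its 3′ end, and a further WT interval of 5217 bp inside the gene.

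Signalling lists were small in KO. Of Wnt genes 2 of 8 in KO and 11 of 20 in WT (55.0%, 34.2% to 74.2%) carried a long interval. Of the frizzled receptors, Fzd5 (6296 bp), Fzd3 (3752 bp), Fzd1 (3429 bp), Fzd8 (2874 bp) and Fzd4 (2227 bp) had one in WT alone, and Fzd6 (1700 bp) in KO alone. Dact1, which binds Dishevelled, had 2540 bp in KO and 2390 bp in WT. Of Notch genes 2 of 6 in KO and 8 of 15 in WT had one. Maml1, a Notch coactivator, had 3195 bp in KO and 3064 bp in WT, and Heyl, a Notch target repressor, 2879 bp in KO and 3913 bp in WT from the same left edge. Notch1 itself had 3075 bp in WT alone.

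TGF-β and BMP genes had 1 of 9 in KO, the ligand Tgfb3 with an identical 1461 bp, and 9 of 17 in WT. Receptor tyrosine kinase and Ras genes had 4 of 12 in KO and 7 of 21 in WT, and all 4 KO genes were among the WT ones: Irs1, Egfr, Braf and Fgfr2. Braf, a Raf kinase, had 2040 bp in KO inside a WT interval of 6001 bp. Fgfr2, the epithelial receptor for Fgf10, had an identical 1673 bp. Irs1, the insulin receptor substrate, had 4663 bp in KO and 1724 bp elsewhere in WT. Hippo genes had 0 of 6 in KO (Wilson upper bound 39.0%) and 4 of 16 in WT.

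Pancreatic gene lists were small, and most of their shares could not be told from those of all listed genes, 17.7% in KO and 32.4% in WT. Of progenitor regulators 0 of 3 in KO and 4 of 10 in WT had one. They included Prox1 (5253 bp), Tcf7l2 (2061 bp) and Onecut1 (1481 bp), all transcription factors. Of endocrine and islet genes 1 of 7 in KO and 5 of 15 in WT had one. Chgb, a granin of hormone granules, had an identical interval of 1766 bp, with fold enrichments of 2.45 in KO and 3.98 in WT, the KO value being the lowest among long KO intervals. Glis3, which drives beta cell genes, had 4265 bp in WT alone. Of acinar and duct genes 0 of 11 in KO and 1 of 14 in WT had one, the RNA-binding protein gene Bicc1 with 2542 bp.

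Markers of other cells in the tissue were listed too. Any interval was listed for 3 of 12 pancreas markers in KO (Nkx6-1, Amy2a5 and Gcg) and 8 of 12 in WT. Of mesenchyme markers 4 of 6 were listed in each, of endothelium 1 of 4 (Cdh5) in each, of blood 2 of 4 in each, of neural and glial cells 1 of 4 (Ret) in each, and of liver 1 of 3 in KO and 3 of 3 in WT. Pdx1 and Ptf1a were in neither list. Long intervals were found on none of these markers in KO and in WT on the mesenchyme marker Col3a1, the endothelial marker Cdh5 and the neural marker Ret, among others. In the longer mesenchyme list, 3 of 11 genes in KO and 4 of 11 in WT had one, with Prrx1 at 1502 bp in KO and 1529 bp in WT. The part of these cell types in the long intervals of either list was not tested.

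The m6A machinery itself carried long intervals: 3 of 10 listed genes in KO (10.8% to 60.3%) and 7 of 18 in WT (20.3% to 61.4%). These intervals include the 17.7% and 32.4% of all listed genes. Ythdf3, a cytoplasmic reader, had 2646 bp in KO and 2859 bp in WT, with fold enrichments of 4.11 and 4.33. Mettl16, a separate m6A methyltransferase, had 1558 bp in KO alone. Rbm15, which guides the writer complex to its targets, had 4108 bp in WT alone, and Fto, a demethylase, 2158 bp. Mettl3 had no long interval in either list.

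The remaining lists stood beside the same 17.7% in KO and 32.4% in WT of all listed genes. Ubiquitin ligases and deubiquitinases had 1 of 20 in KO and 14 of 38 in WT, actin and spectrin linkers 4 of 19 in KO and 12 of 27 in WT (44.4%), and endosome and Rab genes 4 of 20 in KO and 10 of 29 in WT. Spliceosome and RNA-binding genes had 2 of 20 in KO and 11 of 34 in WT, and motors 2 of 15 in KO and 5 of 24 in WT. Of apoptosis genes 1 of 6 in KO and 5 of 13 in WT had one. Bcl2, the survival factor, had 2848 bp in KO near its 3′ end and 2180 bp in WT near its start. Housekeeping and ribosomal genes on that list had no KO interval, and 0 of 9 in WT had a long one.

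Shares also differed among deposited pathway terms. Of genes with a KEGG term, 142 of 1079 in KO (13.2%) and 513 of 1903 in WT (27.0%) carried a long interval. Terms with at least 20 listed genes in KO or 30 in WT were counted. The Wilson interval lay above that share for 11 of 75 terms in KO and 17 of 97 in WT. It lay below for 0 in KO and 10 in WT. Wnt signalling had 5 of 31 in KO and 25 of 55 in WT (45.5%, 33.0% to 58.5%). ErbB signalling had 5 of 18 in KO and 17 of 38 in WT (44.7%), and MAPK signalling 16 of 56 in KO (28.6%) and 32 of 88 in WT (36.4%). At the low end, the ribosome had 0 of 14 in KO and 2 of 41 in WT, and oxidative phosphorylation 0 of 17 in KO and 2 of 44 in WT. Genes with the function term for sequence-specific transcription factor activity had one in 39 of 113 in KO (34.5%) and 134 of 247 in WT (54.3%, 48.0% to 60.4%), beside 17.4% and 32.1% of all genes with a function term. These terms share genes and were picked after their values were seen.

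Long intervals had lower deposited fold enrichments than shorter ones in each list. The median was 5.62 over long KO intervals (quartiles 4.74 and 6.66) and 6.30 over shorter ones (5.25 and 7.58). In WT it was 7.22 over long (6.03 and 8.75) and 8.04 over shorter intervals (6.61 and 9.70). At 3000 bp or more it was 5.18 in KO and 6.94 in WT. The deposited peak score, which equals the deposited -10 × log10 of the peak's p-value, went the other way, with medians of 70.8 over long and 68.7 over shorter intervals in KO, and 95.5 and 82.8 in WT. Quartile ranges overlapped widely throughout.

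**Figure D5:**
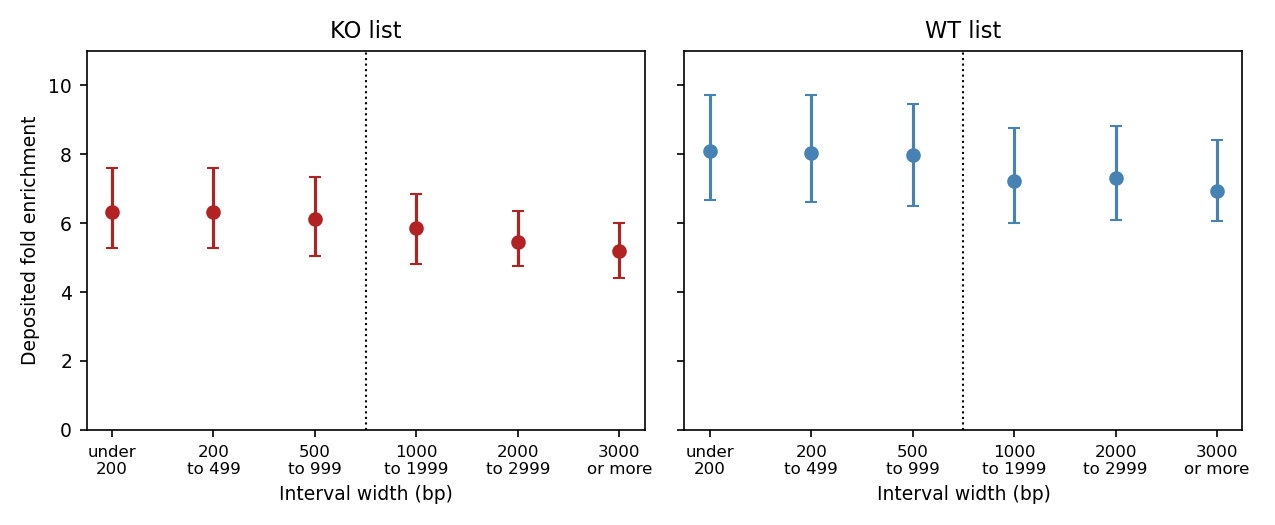
Deposited fold enrichment (y axis) by width class (x axis, bp), KO list left and WT list right, with medians as points and quartiles as bars and a dotted line at 1000 bp. The medians are lowest in the widest class, 5.18 in KO and 6.94 in WT, and the quartile ranges overlap.

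Individual long intervals nevertheless reached high enrichment. In KO the highest were Eno1b (16.68), a close copy of the enolase gene Eno1 whose reads may be shared, Camk1d (14.66), a calmodulin-dependent kinase, and C1ra (12.14), a complement protease. The Camk1d interval of 2913 bp shared its 5′ edge with a WT interval of 364 bp. In WT the highest were Ypel1 (36.86), a small yippee-family protein, Alms1 (24.32), a ciliary protein, and Chd1 (19.89), a chromatin remodeller. The deposited false discovery rate was 100% for Eno1b, Camk1d, Ypel1 and Alms1, 80.43% for C1ra and 77.45% for Chd1. Their scores were nevertheless high. In KO they were 1886.65 for Eno1b, 312.75 for Camk1d and 178.06 for C1ra, beside a median of 70.8 over long intervals. In WT they were 671.7 for Ypel1, 872.76 for Alms1 and 467.59 for Chd1, beside 95.5. Oxct1, a ketone-using mitochondrial enzyme, had a high value in both lists over an identical 1617 bp, at 10.78 in KO and 11.85 in WT.

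Genes listed in 1 genotype alone also held highly enriched long intervals. In KO these were led by Hspa1a (11.08), a heat shock chaperone with the near-identical neighbour Hspa1b, Rab15 (11.01), an endosomal GTPase, and Marchf5 (10.97), a mitochondrial ubiquitin ligase. In WT they were led by Ypel1, C1s1 (16.35), a complement protease, Kif3c (15.95), a kinesin, Zfp644 (15.91) and Nkx2-3 (15.42), a homeobox gene of gut and spleen mesoderm. The Hspa1a interval of 2545 bp, the Marchf5 interval of 1075 bp and the Ypel1 interval each carried a false discovery rate of 100%. Their scores were 524.28, 330.86 and 671.7.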

How the data were processed

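The deposited table lists m6A sites on mRNA separately for KO and WT, each from 1 MeRIP and 1 input library. Per the submitters' processing notes, cutadapt 1.9.3, HISAT2 2.0.4 and the mm10 build were used; peak names begin with MACS, and its version and settings are not stated. The authors deposited for each interval its coordinates and length, a score (-10 × log10 of the p-value), a fold enrichment (a ratio) and a false discovery rate, read here as percent. These values were used as deposited, and folds were read within a list only. Coordinates are 1-based. Symbols were updated through RefSeq gene IDs, and strand, start sites and sequences came from RefSeq tables (GRCm38.p6), which gave strand for 77.0% of long KO and 78.6% of long WT intervals. Intervals of 1000 bp or more were counted with pandas 2.3.3 and numpy 2.4.6 on Python 3.11.15. Shares carry Wilson 95% intervals. Overlap code was tested on simulated data and found 488 of 488 pairs. The members, the 25 gene lists and the naming rule were chosen with earlier results of these data known. The rule named, in each list, the widest long intervals, those of highest fold enrichment, genes with most of them, the widest identical pairs, genes listed in 1 genotype and up to 3 members per gene list by width, without predicted genes and pseudogenes; further members are named beside their list and were chosen after their values were seen. Alternatives were another length threshold, a false discovery rate of at most 50%, a higher fold, equal list lengths and stricter overlap. A result that needs an item withheld for evaluation is not reported here.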

Additional observations from a re-analysis of the deposited data

How the results depend on the processing

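Each alternative changed 1 choice, and each main value was compared under the alternatives that applied to it. Of these comparisons 38 moved by less than their intervals or stayed within 1.5 times, 19 moved by more and 2 reversed. At 1500 bp or more the long intervals numbered 309 in KO and 1138 in WT, and 131 genes had one in both lists. With a false discovery rate of at most 50%, 35.8% of long KO and 7.89% of long WT intervals were overlapped, 30.2% of pairs with a long member were identical (37.3% of 225 pairs without this limit), and 133 genes had one in both. With a fold enrichment of at least 5 these values were 32.8%, 7.53%, 26.5% and 121 genes, long minus shorter KO overlap was 4.26 points (-0.793 to 9.65) against 8.53, and long minus shorter WT overlap -1.90 points against -0.16. With as many WT as KO intervals, taken by highest fold enrichment, 461 were long WT intervals, 10.3% of long KO intervals were overlapped, the long minus shorter KO difference turned from 8.53 to -2.85 points, 27.9% of pairs were identical and 54 genes had one in both. When identical edges were required the shares were 16.7% in KO and 4.75% in WT, and the differences -10.6 points in KO, reversed, and -5.94 points in WT. Fewer intervals were compared in the shortened and filtered lists by construction. The shortened WT list also held a smaller share of long intervals, 11.7% against 16.8%. The limit on the false discovery rate removed long intervals of very high score, among them Eno1b in KO (1886.65) and Apc in WT (769.79). Each had a rate of 100%, so that limit did not select the stronger calls. Other causes were not tested. Of the shares of the gene lists at other length thresholds, 90 moved by less than their intervals and 8 by more. No paired analysis was possible because the lists come from 1 MeRIP and 1 input library per genotype, so no replicate could be left out either. Depth is unknown, and no value here has a replicate error.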

Other observations

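Further families and deposited terms had both low and high shares of genes with a long interval, beside 17.7% in KO and 32.4% in WT of all listed genes. Genes with a Usp symbol, deubiquitinases, carried one in 0 of 17 listed genes in KO and 9 of 26 in WT, and genes with an Rnf symbol, mostly ubiquitin ligases, in 1 of 14 in KO and 3 of 21 in WT. Collagen genes had 2 of 16 in KO and 5 of 17 in WT. The biological process term for RNA splicing had 2 of 53 in KO and 19 of 104 in WT, that for translation 1 of 49 in KO and 14 of 106 in WT, and that for protein folding 1 of 27 in KO and 6 of 53 in WT. These stood beside 17.2% in KO and 32.0% in WT of all genes with a process term. Insulin signalling, by the deposited KEGG term, had 5 of 31 in KO and 24 of 58 in WT (41.4%). The mTOR term had 3 of 16 in KO and 16 of 35 in WT (45.7%). Of all genes with a KEGG term 13.2% in KO and 27.0% in WT had one.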
